A study of Mus musculus with 13 samples.

Results

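The genes described here encode 10 antimicrobial proteins made by the intestinal epithelium or by neutrophils: Reg3b, Reg3g, Retnlb, Saa1, Saa2, Saa3, Lcn2, Camp, Ltf and Ngp. They were chosen by gene symbol, and all 10 were found among the 32285 genes of the count tables. They were measured by single-cell RNA sequencing (scRNA-seq), in which each unique molecular identifier (UMI) stands for 1 captured RNA molecule, in 10 colon tumors and 3 samples of adjacent mucosa. Every library came from a C57BL/6J mouse of genotype ApcMin/+; p16cis/cis. These mice combine the Apc mutation with a p16 epimutation that the study describes as age-dependent. Every mouse was on the supplemented diet (folate, choline, betaine and B12), so no comparison of diets can be made. The samples came from 3 animals. Mouse A (24 weeks) gave mucosa 2 and 4 tumors (tumors 5 to 8), mouse B (23 weeks) gave mucosa 3 and 2 tumors (tumors 9 and 10), and mouse C (20 weeks) gave mucosa 1 and 4 tumors (tumors 1 to 4). Tumors of 1 mouse are not independent animals. Tumors and mucosa were also dissociated by different protocols, a tumor dissociation kit for tumors and EDTA followed by TrypLE for mucosa, so that tissue and dissociation cannot be told apart in any comparison below.

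Total depth was 57221300 to 93157039 UMIs in the tumor libraries and 84883382 to 116133079 UMIs in the mucosa libraries. After filtering, 85953 tumor cells and 22542 mucosa cells were kept, with median depths per cell of 3661 to 5018 UMIs in tumors and 7085 to 9549 UMIs in mucosa. Barcodes over the limit of 25% mitochondrial UMIs made up 4.29% to 11.5% of tumor libraries and 14.3% to 28.9% of mucosa libraries. No pair of libraries shared more than 33 barcodes. The labels give 7 libraries as female and 6 as male, but all 13 held Ddx3y (29.1 to 50.7 CPM, the UMIs of a gene scaled to 1e6 UMIs of the library) and almost no Xist (at most 0.129 CPM), so the sex labels were not used. Epithelial cells were 66.2% of mucosa cells and 17.5% of tumor cells, and neutrophil-like cells were 0.266% of mucosa cells and 33.3% of tumor cells. In sums over all cells, fewer cells of a type and less RNA per cell cannot be told apart.

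Antimicrobial proteins of the gut form a chemical barrier between the epithelium and luminal bacteria. Reg3b and Reg3g are C-type lectins that enterocytes and Paneth cells secrete in response to microbes, to interleukin 22 and to STAT3 signalling, and Retnlb (resistin-like molecule beta) is a product of colonic goblet cells. Serum amyloid A proteins bind retinol and lipids and rise in inflammation. Lcn2 (lipocalin 2) withholds iron by binding bacterial siderophores and is made by both inflamed epithelium and neutrophils. Camp (cathelicidin), Ltf (lactotransferrin, an iron-binding protein) and Ngp (neutrophilic granule protein) are stored in the secondary granules of neutrophils and are transcribed mainly before neutrophils leave the bone marrow.

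The upstream sequences of the paired Reg3 and Saa genes are shown because the members of each pair were measured side by side below and because similar genes can share reads. Reg3b (ENSMUSG00000071356, chr6:78370657-78373466, plus strand, GRCm38) and Reg3g (ENSMUSG00000030017, chr6:78466269-78468872, minus strand) lie 92.8 kb apart. Saa1 (ENSMUSG00000074115, chr7:46740497-46742980, minus strand) and Saa2 (ENSMUSG00000057465, chr7:46751790-46754313, plus strand) lie 8.81 kb apart. Sequences are from RefSeq (GRCm38.p6), which held the promoters of 9 of the 10 genes, all but Retnlb. Capitals mark matches to TTCNNNGAA (the STAT motif), TTGCNNAA (the C/EBP motif) and TATAAA. The Reg3 sequences are the last 140 bases before the start that RefSeq gives the gene (chr6:78370745-78370884, plus strand, and chr6:78468875-78469014, minus strand), and the Saa sequences run from 200 to 51 bases before it (chr7:46743031-46743180, minus strand, and chr7:46751633-46751782, plus strand). GENCODE, the source of the gene positions above, sets the start of Reg3b 228 bases further upstream, so the Reg3b stretch lies inside the gene as GENCODE draws it. The RefSeq start lies 43 bases inside the GENCODE gene for Saa2, and the starts are 2 bases apart for Reg3g and 0 for Saa1.
Reg3b: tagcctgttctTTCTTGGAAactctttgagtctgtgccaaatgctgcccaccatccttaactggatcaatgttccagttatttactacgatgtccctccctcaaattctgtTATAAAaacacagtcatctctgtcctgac
Reg3g: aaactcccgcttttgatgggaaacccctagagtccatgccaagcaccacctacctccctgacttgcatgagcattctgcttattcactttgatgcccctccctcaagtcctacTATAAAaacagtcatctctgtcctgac
Saa1: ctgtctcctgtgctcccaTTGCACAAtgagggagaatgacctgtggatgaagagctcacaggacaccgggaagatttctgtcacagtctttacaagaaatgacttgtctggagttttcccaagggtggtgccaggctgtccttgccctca
Saa2: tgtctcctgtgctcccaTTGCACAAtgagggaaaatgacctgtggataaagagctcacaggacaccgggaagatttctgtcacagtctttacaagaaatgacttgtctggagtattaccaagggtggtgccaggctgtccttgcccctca

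The upstream sequences of Reg3b and Reg3g were 68.9% identical and those of Saa1 and Saa2 94.8% identical. The STAT motif, searched on both strands of the 250 bases before each RefSeq start, was found in Reg3b alone among the 9 members and in 7.18% of 27025 mouse promoters. The C/EBP motif, also searched on both strands, was found in 6 of the 9 members (Saa1, Saa2, Saa3, Lcn2, Ltf and Ngp) and in 9.55% of all promoters. TATAAA on the sense strand was found in Reg3b, Reg3g and 8.12% of all promoters. These matches describe letters only, and no binding was measured. The longest annotated transcripts of Saa1 and Saa2 were 96.7% identical, and 16.8% and 17.6% of the 91-base windows in their last 500 bases occurred in the other gene, whereas Reg3b and Reg3g shared none. These longest transcripts cover nearly the whole gene for Saa1 (2446 of 2484 bases) and Saa2 (2443 of 2524 bases). Shorter transcripts were not compared on their own, so the values may not describe the spliced RNA. The division of reads between Saa1 and Saa2 is therefore uncertain.

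To ask how the antimicrobial genes differed between colon tumors and adjacent mucosa, UMIs were summed over all retained cells of each library and tested with edgeR's quasi-likelihood test, with p-values adjusted over all genes tested (Benjamini-Hochberg, threshold 0.05). Reg3b, Reg3g, Retnlb, Saa1 and Saa2 were lower in tumors, and Saa3, Lcn2, Camp, Ltf and Ngp were higher. All 10 genes passed the test, 5 in each direction, against a background of 71.2% of the 17414 genes tested, so that the count of calls does not set these genes apart. Higher calls made up 36.9% and lower calls 34.3% of all genes. The median log2 difference was 0.61 for the 10 genes and 0.04 for all genes. Libraries of the tissues did not overlap for 6 of the 10 genes, against 54.7% of all genes.

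**Figure D1:**
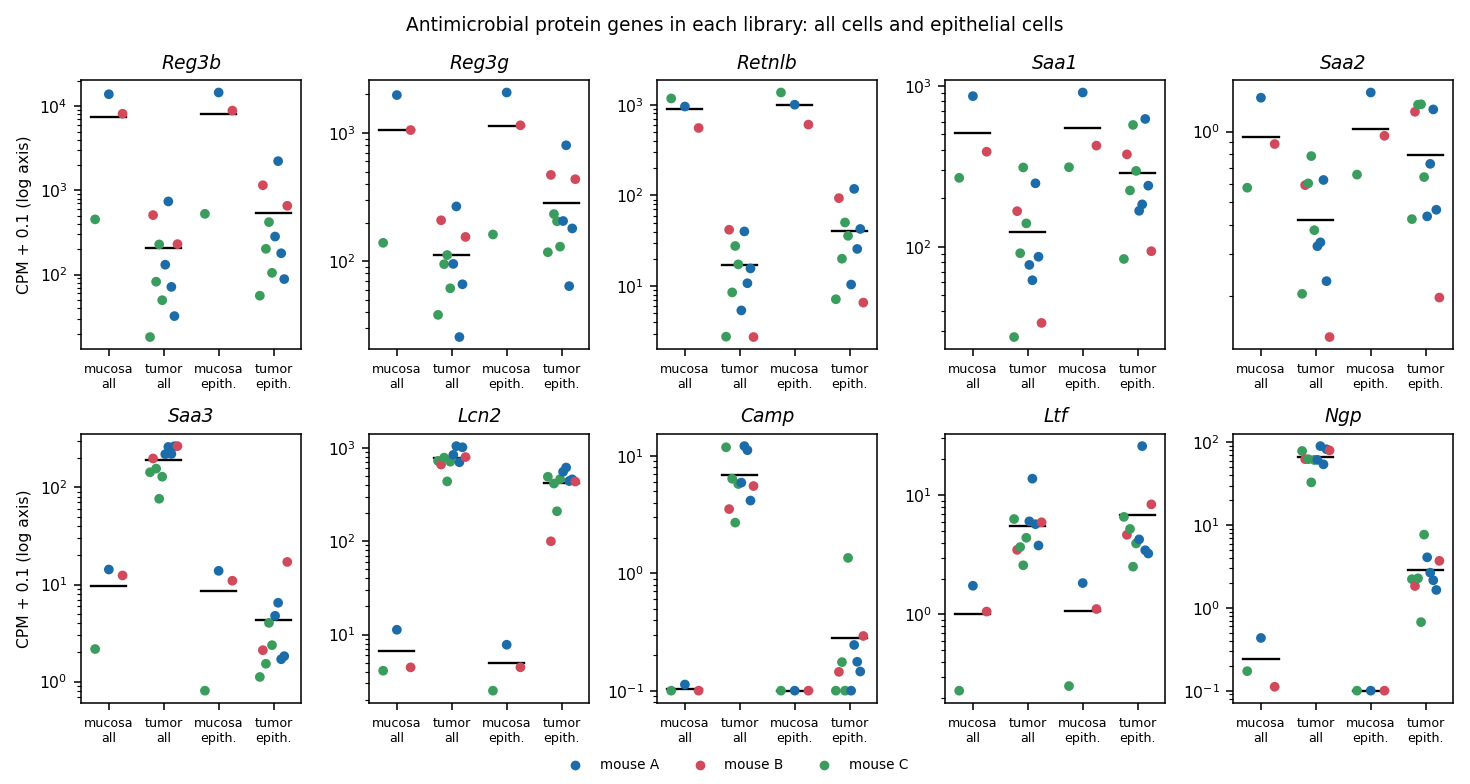
Level of each gene in every library, in CPM plus 0.1 on a log axis, for sums over all cells and over epithelial cells of mucosa and tumors. Points are libraries coloured by mouse, and bars are group means. Lcn2, Ltf and Ngp were higher in every tumor than in every mucosa library in both kinds of sum, Retnlb was lower in both, and Reg3b spanned a wide range within each tissue.

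The lectin Reg3b was at 453 CPM in mucosa 1, 13844 CPM in mucosa 2 and 8123 CPM in mucosa 3, and in tumors it ran from 18.1 through a median of 107 to 739 CPM. Mucosa 1 stood well below the other mucosa libraries and below the highest tumor, so the groups overlapped, although each of the 10 tumors was below the mucosa of its own mouse. The log2 difference was -5.14 (SE 0.94, adjusted p = 0.00023). Without mucosa 2 it was -4.33 (adjusted p = 0.0022), and with the tumors of each mouse summed and the mouse as a block it was -4.21 (adjusted p = 0.010). Reg3g, the close relative of Reg3b, was at 139, 1975 and 1052 CPM in mucosa 1, 2 and 3 and at 25.4 to 267 CPM in tumors, with a median of 94.7. The same mucosa library was lowest for both lectins, and all 10 tumors were again below their own mucosa. Reg3g differed by -3.21 (SE 0.63, adjusted p = 0.00039), by -2.38 without mucosa 2 (adjusted p = 0.0084) and by -2.48 with tumors summed per mouse (adjusted p = 0.031).

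The goblet cell product Retnlb was at 1171, 954 and 553 CPM in mucosa 1, 2 and 3 and at 2.65 to 41.8 CPM in tumors, with a median of 13.1. Every tumor was below every mucosa library, and the log2 difference was -5.67 (SE 0.66, adjusted p = 4.3e-06). Saa1, an acute-phase apolipoprotein, was at 268, 863 and 389 CPM in mucosa and at 27.4 to 311 CPM in tumors, with a median of 88.8. Its highest tumor exceeded mucosa 1. Saa1 fell by 2.04 on the log2 scale (SE 0.55, adjusted p = 0.0045), a call lost without mucosa 2 (-1.40, adjusted p = 0.068), and the value was -2.75 when cells were held under 10% mitochondrial UMIs. Saa2 was scarce, with 203 UMIs in all tumors and 202 in all mucosa libraries. It was at 0.477, 1.30 and 0.785 CPM in mucosa 1, 2 and 3 and at 0.0331 to 0.686 CPM in tumors, and its call (-1.40, SE 0.56, adjusted p = 0.036) was lost without mucosa 2 (adjusted p = 0.22), mucosa 3 (0.070), tumor 4 (0.053), tumor 5 (0.053) or tumor 8 (0.051).

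Saa3, a serum amyloid A made outside the liver, moved the opposite way from its neighbours on chromosome 7. It was at 2.07, 14.2 and 12.3 CPM in mucosa 1, 2 and 3 and at 76.2 to 266 CPM in tumors, with a median of 209. Every tumor was above every mucosa library, by 4.37 on the log2 scale (SE 0.61, adjusted p = 2.4e-05). Lcn2 was at 4.0, 11.2 and 4.35 CPM in mucosa and at 436 to 1040 CPM in tumors, with a median of 752. It also separated the tissues fully, with a log2 difference of 6.92 (SE 0.47, adjusted p = 4.4e-08) that was 7.58 without mucosa 2.

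Of the neutrophil granule genes, Ngp was at 0.0722, 0.333 and 0.0116 CPM in mucosa 1, 2 and 3 and at 32.8 to 90.0 CPM in tumors, with a median of 62.6. Its 32 mucosa UMIs stood against 42537 in tumors, a ratio of CPM of 486 (95% counting interval 344 to 711). The log2 difference was 8.94 (SE 0.66, adjusted p = 8.3e-08), with 10.73 without mucosa 2 and 8.35 without mucosa 3. Camp had 1 UMI in mucosa, in mucosa 2, against 4428 in tumors, where it was at 2.60 to 12 CPM with a median of 5.73. Its ratio was 1619 with a counting interval of 291 to 63980, and it passed the test (adjusted p = 9.7e-07). Ltf was at 0.130, 1.64 and 0.959 CPM in mucosa 1, 2 and 3 and at 2.48 to 13.6 CPM in tumors, with a median of 4.95. All tumors were above all mucosa libraries, by 2.61 (SE 0.67, adjusted p = 0.0030), or 3.34 without mucosa 2. Counting intervals cover counting error only. These all-cell tests treated the 10 tumors as independent, although tumors of 1 mouse are not. Over 22 alternatives of the test, the highest adjusted p was 0.00088 for Retnlb, 0.0018 for Saa3 and 0.00049 for Lcn2. It was 0.0011 for Ngp, 0.00047 for Camp and 0.015 for Ltf.

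The cells that carried each gene were then described in the tumors. Classes were named from marker genes after clustering without the 10 genes, and since classes rest on genes of the same cells, levels by class are a description with no test. Values are means over libraries in which the class had 20 cells or more, and classes were ordered where they had a name and at least 5 such libraries. This left out the unnamed epithelial cells of the tumors, which reached 20 cells in tumors 6, 7 and 10 and held Reg3b at 6915, 143 and 1524 CPM there, each below the absorptive-like cells of the same tumor (9401, 1027 and 2452 CPM). Among the ordered classes, Reg3b was highest in absorptive-like cells (1749 ± 2782 CPM, SD, n = 10), followed by Paneth-like cells (692 ± 821, n = 8), tumor epithelial-like cells (210 ± 239, n = 10) and goblet-like cells (203 ± 325, n = 7). In each of these 4 classes the SD exceeded the mean, so their order is not settled. Single tumors set several of these means: without tumor 6, Reg3b was at 899 ± 757 CPM in absorptive-like and 111 CPM in goblet-like cells, and without tumor 9 it was at 436 CPM in Paneth-like cells. Reg3g was highest in Paneth-like cells (1751 ± 930 CPM, range 784 to 3767, n = 8), then absorptive-like (478 ± 716, n = 10, or 262 without tumor 6), tumor epithelial-like (180 ± 151) and crypt-like cells (143 ± 126). The lowest Paneth-like library was above the tumor epithelial-like and crypt-like means, and the absorptive-like cells overlapped it.

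Retnlb was highest in goblet-like cells (968 ± 512 CPM, 520 to 1944, n = 7). In Paneth-like cells it averaged 404 ± 972 CPM (n = 8), and tumor 6 alone, with 2805 CPM from 25 such cells, made that mean: the other 7 libraries were at 14.2 to 174 CPM. Saa1 was highest in absorptive-like cells (2077 ± 937 CPM, 860 to 3436, n = 10), above goblet-like cells (757 ± 496, n = 7). Saa2 was at 4.57 ± 2.38 CPM in absorptive-like and 4.06 ± 2.80 CPM in goblet-like cells, within their spread.

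Saa3 went against a grouping as an epithelial or neutrophil product in these tumors. It was highest in Spp1+ macrophage-like cells (1131 ± 394 CPM, 519 to 1823), then in Ly6c+ monocyte-like (732 ± 203, 460 to 1020) and C1q+ macrophage-like cells (320 ± 241). The Spp1+ and Ly6c+ classes overlapped. Within the Spp1+ class, the cluster led by Inhba, Il1a and Cxcl3 held 2044 ± 781 CPM and the cluster led by Ccl24, Spp1 and Arg1 held 346 ± 231 CPM. A Saa3 UMI was found in 28.6% of Spp1+ macrophage-like cells (18.2% when each cell was thinned to 1000 UMIs) and in 1.21% of tumor T cell-like cells (0.410% thinned), a class that should lack it.

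Lcn2 was highest in neutrophil-like cells (4063 ± 462 CPM, 3404 to 4811, n = 10), and the next class was tumor epithelial-like cells (764 ± 329, 372 to 1575). Crypt-like (285 ± 107) and Spp1+ macrophage-like cells (284 ± 99.1) followed at like levels. The neutrophil-like range lay wholly above that of tumor epithelial-like cells. Ngp (469 ± 46.4 CPM, 398 to 528) and Camp (48.0 ± 22.0 CPM, 22.8 to 88.7) were highest in neutrophil-like cells, and the next class for Ngp with at least 5 libraries and a name was absorptive-like cells at 3.32 ± 3.50 CPM. Ltf was at 18.4 ± 8.81 CPM (6.96 to 31.6) in neutrophil-like, 9.20 ± 4.43 in absorptive-like, 8.03 ± 15.8 in tumor epithelial-like and 6.74 ± 6.96 CPM in crypt-like cells. These Ltf ranges overlapped, and tumor 6 set the tumor epithelial-like mean with 53.1 CPM, against at most 4.51 CPM in the other 9 tumors.

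**Figure D2:**
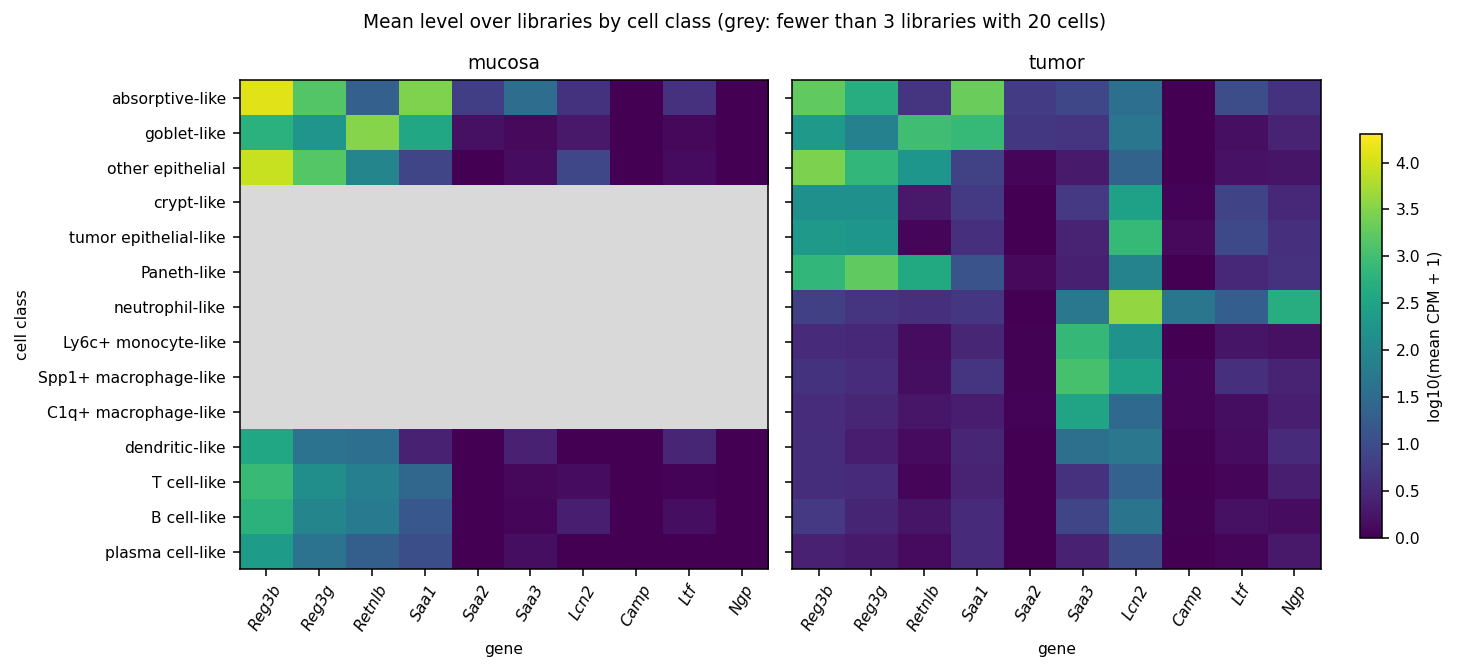
Heat map of the mean level of each gene, as log10(CPM + 1), in each cell class of mucosa and of tumors. Grey cells had fewer than 3 libraries with at least 20 cells. Among named classes with at least 5 tumor libraries, Reg3b, Saa1 and Saa2 peaked in absorptive-like, Reg3g in Paneth-like, Retnlb in goblet-like, Saa3 in Spp1+ macrophage-like and Lcn2, Camp, Ltf and Ngp in neutrophil-like cells. The row of other epithelial cells rests on 3 tumors, 1 of them tumor 6, and is not comparable with rows over 10 tumors.

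The class that held most UMIs differed between the tissues for some genes and not for others. Shares are of UMIs pooled over libraries. Absorptive-like cells, 2.25% of tumor cells, held 56.1% of the tumor UMIs of Reg3b, 29.6% of those of Reg3g, 90.5% of those of Saa1 and 76.4% of those of Saa2. They also held most Saa1 (83.1%) and Saa2 (86.1%) in mucosa. The other Reg3g UMIs of tumors lay mainly in crypt-like (21.5%), tumor epithelial-like (21.3%) and Paneth-like cells (20.8%), the last being 0.691% of tumor cells. Tumors 6 and 10 gave 46713 and 25887 of the 126324 Reg3b UMIs of tumors. For Reg3g they gave 16874 and 10590 of 69051 UMIs. The pooled Reg3b and Reg3g shares therefore need not hold in each tumor. Goblet-like cells, 0.512% of tumor cells and 17.7% of mucosa cells, held 70.7% of the Retnlb UMIs in tumors and 94.9% in mucosa. In mucosa, most Reg3b (56.3%) and Reg3g (64.9%) UMIs were in epithelial clusters that carried no class name, among them clusters led by Sult1a1 or by histone genes, and absorptive-like cells held 41.6% and 30.8%.

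For Saa3, absorptive-like cells held 80.1% of the UMIs in mucosa (25.9% to 87.8% over libraries), while Spp1+, Ly6c+ and C1q+ myeloid cells held 50.7%, 29.5% and 13.7% in tumors. These 3 myeloid classes numbered 52, 54 and 37 cells in mucosa and 9293, 7988 and 3946 in tumors. The shares therefore do not show that expression moved between cell types. Neutrophil-like cells held 72.3% of the Lcn2 UMIs in tumors (63.3% to 84.3%) and epithelial cells 21.7%. In mucosa epithelial cells held 69.2% of Lcn2, and the 0.266% of cells that were neutrophil-like held 24.0%, although 42 of these 60 cells lay in 1 shallow cluster of mucosa 2. Neutrophil-like cells held 98.1% of Camp and 97.2% of Ngp in tumors. Ltf was divided between neutrophil-like (48.3%) and epithelial cells (44.9%) in tumors and was mostly absorptive-like (73.6%) in mucosa.

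**Figure D3:**
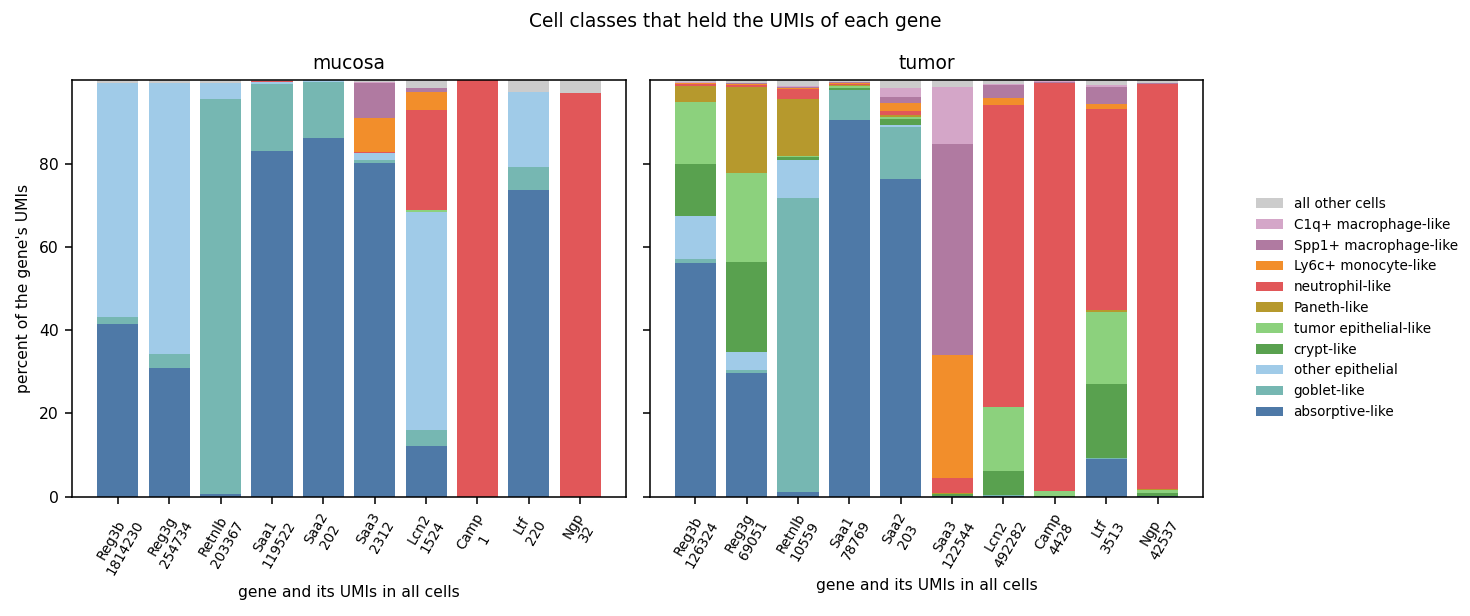
Percent of each gene's UMIs that fell in each cell class, stacked to the whole, in mucosa and in tumors, with the total number of UMIs under each gene. UMIs were pooled over the libraries of a tissue. In these pooled counts the class with most UMIs differed between tissues for Reg3b, Reg3g, Saa3, Lcn2 and Ltf. Goblet-like cells held most Retnlb in both tissues (94.9% and 70.7%).

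UMIs were also found in cells that should lack the gene, and their source was not tested. Reg3b was seen in 70.1% of mucosa absorptive-like cells (50.3% thinned to 1000 UMIs), but also in 47.7% of mucosa T cell-like cells (38.5% thinned, 2.37% to 93.0% over libraries), which should lack it. In tumors these shares were 19.1% (11.8% thinned) and 1.11% (0.406% thinned). Median depths were 12852 UMIs in absorptive-like and 1760 UMIs in T cell-like cells of mucosa, and 12354 and 3491 UMIs in tumors. Reg3b values in the leukocytes of mucosa are therefore not read as expression. As levels, T cell-like cells of mucosa 1, 2 and 3 held Reg3b at 5.92, 2018 and 356 CPM and Retnlb at 15.4, 167 and 30.2 CPM. In the passages below, values under the T cell-like level of the same library are not read as expression. T cell-like cells were far shallower, so CPM of the classes are not like for like. Of the 4808 T cell-like cells of mucosa, 3861 lay in 1 shallow cluster in which 3 epithelial markers also counted as detected. The T cell-like level can therefore be a high cutoff, and values under it are left undecided. Whether cells with such values expressed the gene was not tested.

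To separate the epithelium from the leukocytes that filled the tumors, the same test was run on sums over epithelial cells. These sums held largely different classes in the 2 tissues. Crypt-like and tumor epithelial-like cells numbered 7950 and 3925 in tumors but 12 and 6 in mucosa. Unnamed epithelial, goblet-like and absorptive-like cells numbered 6767, 3994 and 3758 in mucosa but 172, 440 and 1935 in tumors. A change of classes and a change within cells therefore cannot be told apart in these sums. Of the 10 genes, 9 could be tested, 7 passed (3 higher and 4 lower), and 64.6% of the 15309 genes tested passed (34.1% higher and 30.5% lower). Their median log2 difference was -1.23, against 0.04 for all genes. Reg3b fell by 4.18 on the log2 scale (SE 0.93, adjusted p = 0.0014), from 526.5, 14523 and 8857 CPM in mucosa 1, 2 and 3 to 56.1 to 2225 CPM in tumors, with a median of 243. Tumors and mucosa 1 overlapped, and the value was -3.42 without mucosa 2 (adjusted p = 0.013) and -3.38 with tumors summed per mouse (adjusted p = 0.0066). Reg3g fell by 2.28 (SE 0.64, adjusted p = 0.0068), from 161, 2068 and 1147 to 63.7 to 801 CPM, with a tumor median of 205. That call was lost without mucosa 2 (-1.49, adjusted p = 0.098), and with tumors summed per mouse it was -1.67 (adjusted p = 0.045). In mouse C the mean of the 4 tumors (171 CPM) was not below the mucosa (161 CPM).

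Retnlb fell by 4.88 in epithelial sums (SE 0.68, adjusted p = 3.5e-05), from 1362, 999 and 603 CPM to 6.49 to 118 CPM, and by 2.93 when goblet-like cells were left out (adjusted p = 0.0062). The unnamed epithelial cells held Retnlb at 175 CPM in mucosa 1, 72.8 CPM in mucosa 2 and 21.4 CPM in mucosa 3, which is above the T cell-like level in mucosa 1 and below it in mucosa 2 and 3. Every tumor was below every mucosa library. Saa1 was lower by 1.23 (SE 0.52, adjusted p = 0.049), at the threshold. That call was lost with the mouse as a block (-1.21, adjusted p = 0.075), without mucosa 2 (-0.65, adjusted p = 0.37) or mucosa 3 (adjusted p = 0.067), and without any 1 of tumors 1, 2, 4, 5, 6, 8 and 9 (adjusted p 0.055 to 0.074). Saa2 (-0.69, SE 0.53, adjusted p = 0.27) and Saa3 (-1.31, SE 0.78, adjusted p = 0.15) did not pass. Saa3 was at 0.707, 13.7 and 10.8 CPM in mucosa and 1.02 to 17 CPM in tumors, with 5 tumors above and 5 below their own mucosa, and it passed without mucosa 1 (-1.86, adjusted p = 0.044) or tumor 9 (-1.90, adjusted p = 0.018). With doublets kept it was at 0.31 (adjusted p = 0.71), so the direction of Saa3 in the epithelium is not settled.

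Lcn2 was higher in the epithelial sums of tumors, at 99.5 to 613 CPM with a median of 449, against 2.41, 7.68 and 4.36 CPM in mucosa 1, 2 and 3. Of its 106724 epithelial UMIs in tumors, tumor epithelial-like cells held 74705 and crypt-like cells 29069. All tumors were above all mucosa libraries, by 6.12 on the log2 scale (SE 0.61, adjusted p = 2.5e-06). Ltf rose by 2.46 (SE 0.81, adjusted p = 0.016), from 0.152, 1.73 and 1.01 CPM to 2.42 to 25.6 CPM, with a tumor median of 4.35. The groups did not overlap, but the call was lost without mucosa 1 (1.96, adjusted p = 0.057) or mucosa 3 (2.49, adjusted p = 0.052), and without mucosa 2 it was 3.18 (adjusted p = 0.017). In epithelial sums, mucosa held 0 UMIs of Ngp and tumors held 764. Against a floor of 3 counts over the mucosa libraries, Ngp was 209-fold higher, with a lower 95% counting limit of 170-fold. Camp, with 0 UMIs in mucosa as well, had 57 UMIs in 7 of the 10 tumors, too few for it to be tested. At the same floor Camp was 15.6-fold higher, with a lower limit of 12.3-fold. Tumor 4 held 44 of the 57 Camp UMIs, and without it the value at that floor was 4.12-fold.

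Neutrophil markers were also higher in the epithelial cells of tumors. The 7 neutrophil markers used to name the class (S100a8, S100a9, Csf3r, Cxcr2, Retnlg, Clec4d and Il1r2) summed to 1517 ± 431 CPM in tumor epithelial cells (828 to 2184) and 13.9 ± 9.49 CPM in mucosa epithelial cells (6.70 to 24.7), and all 7 were higher in tumors. Per 100 marker UMIs, 0.208 Ngp UMIs were counted in neutrophil-like cells of tumors (0.167 to 0.275 over tumors) and 0.198 in all epithelial cells (0.0693 to 0.597). By class the Ngp value was 0.329 in tumor epithelial-like (0.0508 to 1.23), 0.157 in absorptive-like, 0.150 in crypt-like, 0.135 in T cell-like, 0.0706 in Spp1+ macrophage-like and 0.0538 in goblet-like cells. Tumor 4 set the tumor epithelial-like value, which was 0.173 without it. The Ngp of the whole tumor epithelium overlapped the neutrophil-like proportion, with a wider spread, and without tumor 4 was at 0.146. Lcn2 stood at 1.79 per 100 marker UMIs in neutrophil-like cells (1.39 to 2.13 over tumors), 1.90 in absorptive-like, 1.79 in goblet-like and 2.22 in T cell-like cells. It was far above that proportion in crypt-like cells (19.8, 6.40 to 27.6) and tumor epithelial-like cells (63.4, 33.1 to 205), and also in Spp1+ macrophage-like cells (12.5, 6.52 to 16.3), with no overlap with the neutrophil-like range. Ltf was at 0.00855 per 100 in neutrophil-like cells (0.00277 to 0.0159), 0.0146 in T cell-like and 0.0215 in goblet-like cells (0 to 0.105), 0.117 in Spp1+ macrophage-like cells (0.0608 to 0.182), 0.455 in absorptive-like, 0.421 in crypt-like and 0.520 in tumor epithelial-like cells (0.267 without tumor 6). The lowest library was at 0.194 over all epithelial cells, and none of these last 4 classes overlapped the neutrophil-like range.

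**Figure D4:**
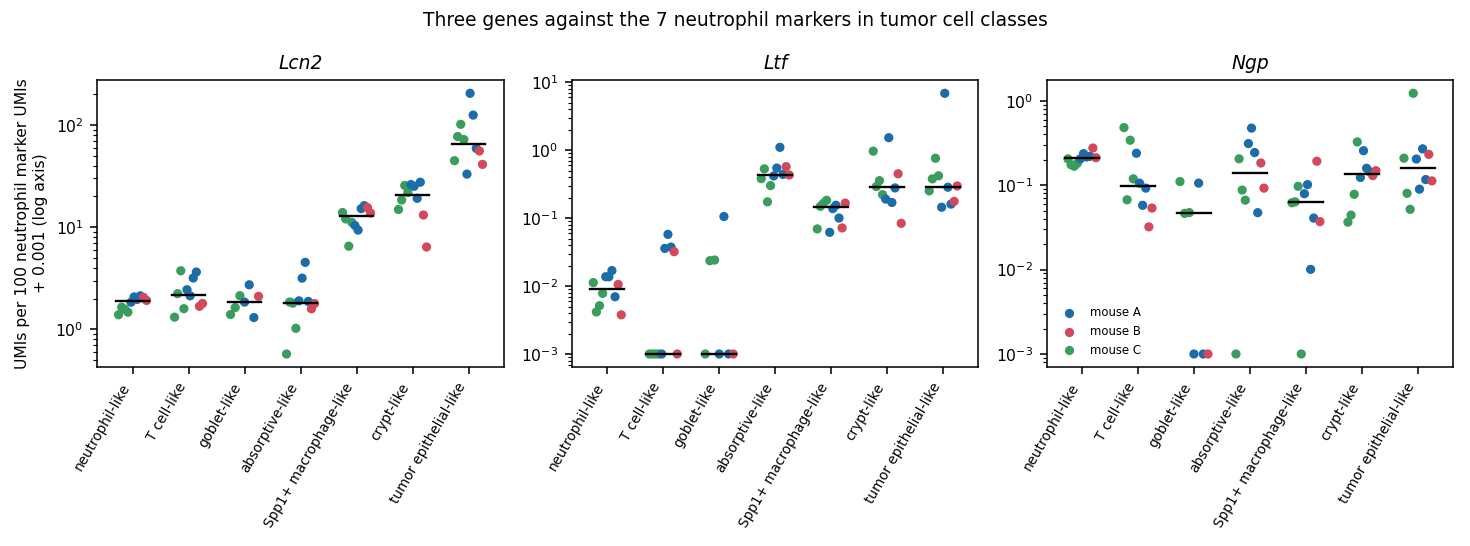
UMIs of Lcn2, Ltf and Ngp per 100 neutrophil marker UMIs (plus 0.001, log axis) in 7 classes of the tumors, 1 point per library, coloured by mouse. Ngp ran from 0.0538 in goblet-like to 0.329 in tumor epithelial-like cells (0.173 without tumor 4), against 0.208 in neutrophil-like cells, Lcn2 rose above 1.79 in crypt-like, tumor epithelial-like and Spp1+ macrophage-like cells, and Ltf rose above 0.00855 in absorptive-like, crypt-like, tumor epithelial-like and Spp1+ macrophage-like cells.

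The comparison was repeated within absorptive-like cells in 10 tumor and 3 mucosa libraries. Pooled over libraries, these cells held most Saa1 and Saa2 UMIs in both tissues and most Reg3b UMIs in tumors. Reg3b (1749 ± 2782 against 13019 ± 11665 CPM, log2 difference -3.31, SE 0.96, adjusted p = 0.0093) and Saa3 (7.22 ± 6.83 against 33.9 ± 20.8 CPM, -2.54, SE 0.52, adjusted p = 0.00083) were lower in tumors. Retnlb also passed (-2.87, SE 0.78, adjusted p = 0.0061), but its 5.17, 43.8 and 9.70 CPM in absorptive-like cells of mucosa 1, 2 and 3 were below the T cell-like levels of the same libraries, so this value is not read as expression. Lcn2 (36.2 ± 18.1 against 3.28 ± 2.95 CPM, 2.86, SE 0.52, adjusted p = 3.0e-04) and Ngp (0 UMIs in mucosa) were higher, and 52.5% of the 10975 genes tested passed (26.4% higher and 26.1% lower). Relative to neutrophil marker UMIs, Lcn2 and Ngp in tumor absorptive-like cells overlapped the neutrophil-like proportions given above, with a wider spread. Whether absorptive-like cells expressed Lcn2 or Ngp was not tested. Without mucosa 2 the calls of Reg3b (-2.35, adjusted p = 0.099) and Retnlb (-1.35, adjusted p = 0.26) were lost and Lcn2 was at 3.75. Without tumor 6, Reg3b was at -4.27 and Retnlb at -4.39. Saa1 (2077 ± 937 against 2897 ± 1555 CPM) differed by -0.87 (SE 0.39, adjusted p = 0.074), and by -0.99 with the mouse as a block (adjusted p = 0.0069). The block also brought Reg3g (-1.93, adjusted p = 0.027 against -1.99, SE 0.84, adjusted p = 0.058) and Saa2 (-0.77, adjusted p = 0.021 against -0.55, adjusted p = 0.26) past the threshold. Ltf (9.20 ± 4.43 against 3.17 ± 1.44 CPM) did not pass (1.01, SE 0.45, adjusted p = 0.069), and passed with DESeq2 (1.11, adjusted p = 0.039), with tumors summed per mouse (adjusted p = 0.010) or without tumor 3 (adjusted p = 0.0091) or tumor 6 (adjusted p = 0.048). Reg3g passed without tumor 6 (-2.85, adjusted p = 0.0013) or mucosa 1 (-2.39, adjusted p = 0.046), but was at adjusted p = 0.36 without mucosa 2, and it passed in 5 of 19 alternatives. Saa1 passed without mucosa 3 (-1.21, adjusted p = 0.030), was at -0.38 without mucosa 1 (adjusted p = 0.51) and passed in 3 of 19.

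These absorptive-like cells were not the same cells in both tissues, and the sign of the Reg3b, Reg3g, Saa3 and Ltf values depended on which cluster was used. In tumors 1903 of the 1935 cells lay in a cluster led by Clca4b, Gsdmc4 and Wfdc2, while in mucosa 2814 of the 3758 cells lay in a cluster led by Cyp2c55 and Car1, and 944 in the Clca4b cluster. Mucosa Reg3b was at 1598, 32042 and 17782 CPM in the Cyp2c55 cluster of mucosa 1, 2 and 3, but at 7.55, 881 and 195 CPM in the Clca4b cluster, where mucosa 2 and 3 were below their T cell-like levels, so that these 2 values are not read as expression. Within the Clca4b cluster alone, tumors held 1877 ± 3160 CPM (12.3 to 10636), a log2 difference of 2.19 (SE 1.33, adjusted p = 0.28) with the opposite sign from the whole class. Saa3 likewise was at 11.8, 62.2 and 59.4 CPM in the Cyp2c55 cluster of mucosa, at 1.49 ± 1.48 CPM in its Clca4b cluster and at 7.31 ± 6.98 CPM in the Clca4b cluster of tumors (1.80, SE 0.84, adjusted p = 0.16). Reg3g was 85.7 ± 125 CPM in mucosa and 514 ± 823 CPM in tumors of that cluster (2.33, SE 1.23, adjusted p = 0.21), and its 0, 229 and 28.4 CPM in mucosa 1, 2 and 3 were below the T cell-like 1.12, 345 and 52.0 CPM, so they are not read as expression either. Saa1 was at 3926 ± 2370 and 2003 ± 1040 CPM (-1.08, SE 0.47, adjusted p = 0.13), Lcn2 at 11.2 ± 10.6 and 36.5 ± 17.6 CPM (1.31, SE 0.48, adjusted p = 0.075) and Ltf at 8.86 ± 5.07 and 9.30 ± 4.44 CPM (-0.27, SE 0.45, adjusted p = 0.73). Retnlb was at -2.31 (SE 0.89, adjusted p = 0.088). Ngp, with 0 UMIs in mucosa, passed (adjusted p = 0.025), but no member with UMIs in the mucosa cells did, and 14.9% of 10797 genes passed. Most tumor cells of the class lay in this cluster, so the overlap of Lcn2 and Ngp with the neutrophil-like proportions bears on these values too.

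Within goblet-like cells, 7 tumors and 3 mucosa libraries had at least 20 cells (tumors 1, 8 and 9 did not), 5 of the 10 genes could be tested, and 11.2% of the 8193 genes tested passed (7.46% higher and 3.78% lower). Retnlb was at 968 ± 512 CPM in tumors and 3299 ± 920 CPM in mucosa (-1.64, SE 0.31, adjusted p = 0.0032), with all 7 tumors below all mucosa libraries. Lcn2 was at 48.4 ± 23.4 and 0.995 ± 0.540 CPM (5.79, SE 0.46, adjusted p = 4.2e-06). Reg3b (-1.39, SE 1.31, adjusted p = 0.53), Reg3g (-1.07, SE 0.84, adjusted p = 0.44) and Saa1 (757 ± 496 against 377 ± 331 CPM, 1.2, SE 0.75, adjusted p = 0.32) did not pass, and none of the 3 passed in any of 16 alternatives. Over these, Reg3b ran from -2.25 (without tumor 6) to 0.11 and Saa1 from -0.35 to 2.10 (without mucosa 2). Goblet-like Reg3b (1051 CPM) and Reg3g (316 CPM) of mucosa 2 were below its T cell-like levels and are not read as expression. In mucosa 1 and 3 both genes were above the T cell-like levels. Here too the clusters differed. In tumors 397 of the 440 cells lay in a cluster led by Zg16, Fcgbp and Clca1, and in mucosa 2296 of the 3994 lay in a cluster led by Muc2, Agr2 and Spdef, where Retnlb reached 2827, 6792 and 4403 CPM. Within the Zg16 cluster Retnlb was at 955 ± 562 CPM in 6 tumors and 1341 ± 411 CPM in mucosa (-0.49, SE 0.34, adjusted p = 0.43), Reg3b (0.11), Reg3g (0.54) and Saa1 (-0.35) changed sign there without passing (adjusted p 0.74 to 0.98), whereas Lcn2 kept its difference (59.6 ± 27.0 against 0.643 ± 0.686 CPM, 6.19, SE 0.55, adjusted p = 8.6e-06), against 5.72% of 8240 genes called. Lcn2 in tumor goblet-like cells stood at the neutrophil-like proportion given above.

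**Figure D5:**
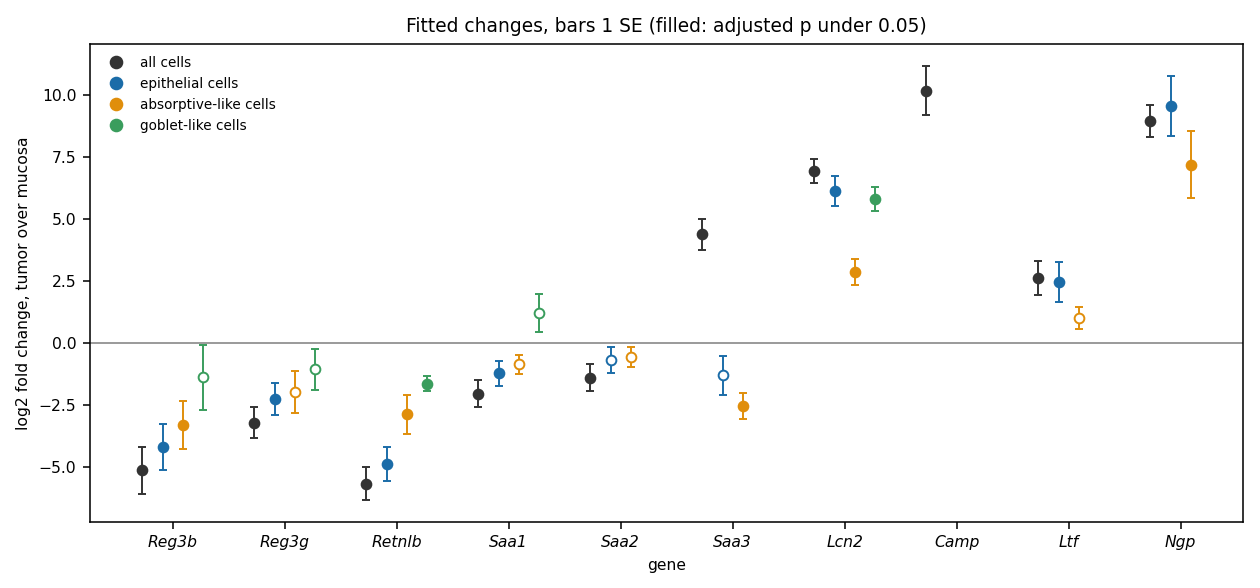
Log2 difference of tumors minus mucosa with 1 SE for each gene, in sums over all cells, epithelial cells, absorptive-like cells and goblet-like cells. Filled points passed the adjusted p threshold of 0.05. The Camp and Ngp points rest on 0 to 1 mucosa UMIs in some of these sums and are no bounds. Lcn2 was higher in all 4 sums (6.92, 6.12, 2.86 and 5.79), whereas Saa3 was higher over all cells (4.37) and at -1.31 and -2.54 in epithelial and absorptive-like cells. In absorptive-like and goblet-like cells of tumors, Lcn2 relative to neutrophil marker UMIs overlapped the neutrophil-like range.

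Among the 28631 neutrophil-like cells of the tumors, the granule genes were unevenly spread. Lcn2 was found in 85.7% of cells and Ngp in 29.8%, but Camp in 511 cells (1.78%) and Ltf in 555 cells (1.94%). Thinned to 1000 UMIs per cell, the means over tumors were 78.7%, 17.3%, 0.752% and 0.768%. In T cell-like cells of tumors, which should lack these genes, the thinned means were 1.66%, 0.107%, 0% and 0.0166%. The 286 cells (1%) with the most UMIs of a gene held 94.8% of the Camp, 84.1% of the Ltf, 31.4% of the Ngp and 6.85% of the Lcn2 UMIs. With only 511 and 555 cells holding any Camp or Ltf, large shares for these 2 genes follow in part from their low detection. The highest cell carried 579 UMIs of Camp, and 35 cells carried at least 10. Cells with a Camp UMI had Ngp in 70.6% against 29.0% of the others and Ltf in 13.9% against 1.72%, higher in 10 of 10 tumors for both genes, with median depths of 3921 and 2658 UMIs. These shares were not thinned, so the deeper cells had more chance of both genes. Cells with an Ltf UMI had Camp in 12.8% against 1.57% (higher in 10 of 10 tumors) and Ngp in 34.6% against 29.7% (higher in 6 of 10 tumors). They had Lcn2 in 75.3% against 85.9%, a share that was higher in 4 of 10 tumors.

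The neutrophil-like clusters differed in the same genes. The largest, with 16710 cells led by Retnlg, S100a9 and Wfdc21, held Ngp at 581, Camp at 68.1 and Ltf at 18.8 CPM. The cluster led by Acod1 and G0s2 (9496 cells) held 349, 10.6 and 10.7 CPM. The cluster led by Ccl3 and Ccrl2 (1607 cells) held little Ngp (26.7 CPM) and Lcn2 (1073 CPM, against 3751 to 4466 CPM in the other 2), yet Ltf at 80.7 CPM. A cluster of 448 cells led by Cxcr2 and Cstdc4 held Ltf at a like level (76.1 CPM) together with Ngp at 614 and Camp at 203 CPM. Tumor 5 gave 39.1% of these 448 cells. All these cluster levels are pooled over tumors with no spread, so single cells or tumors can weigh on them. A further cluster, led by Cxcr2 and Mmp9, held 22 tumor and 42 mucosa cells, was shallow (median 1319 UMIs) and had the goblet gene Tff3 among its 10 leading genes, so its levels are not described. Of the 47 neutrophil-like cells of mucosa 2, 42 lay in that cluster.

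Differences between the mice were then tested among the tumors. In neutrophil-like sums none of the members passed, where 12% of 9386 genes passed; Saa3 (adjusted p = 0.057), Reg3b (0.061) and Reg3g (0.075) came nearest and Ltf (0.30), Ngp (0.37), Camp (0.53) and Lcn2 (0.67) were further off. Reg3 levels in neutrophil-like cells overlapped those in T cell-like cells and are not read as expression. Reg3b was at 5.47 ± 6.66 against 2.65 ± 3.89 CPM and Reg3g at 3.61 ± 3.14 against 2.35 ± 1.99 CPM. With single tumors left out, Saa3 passed without tumor 2 (adjusted p = 0.039) or tumor 5 (0.042), Reg3b without tumor 3 (0.039) or tumor 8 (0.025) and Reg3g without tumor 7 (0.014) or tumor 10 (0.036). In epithelial sums adjusted p was 0.29 to 0.97 for the members, and 0.486% of 15239 genes passed. Lcn2 passed there without tumor 9 (adjusted p = 0.047). Whether the tumor to mucosa difference varied between the mice was tested as an interaction in epithelial sums: 0 of 16317 genes passed with edgeR, 1284 had an unadjusted p under 0.05 and DESeq2 called 292. In simulated data that test recovered 0% of 2-fold and 6% of 4-fold changes, so it says little about these genes.

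Other genes of the same pathways were described from lists. Of 20 other epithelial antimicrobial genes 18 were tested over all cells, and 9 were higher and 6 lower in tumors (median log2 difference 1.31), 15 of 18 against 71.2% of all genes tested. Pigr, which carries IgA across the epithelium, fell from 1504 ± 190 to 224 ± 84.1 CPM (-2.72, SE 0.25, adjusted p = 5.0e-07), and Duox2, which makes hydrogen peroxide at the epithelial surface, fell by 1.40 (SE 0.20, adjusted p = 2.2e-05). Mmp7, the protease that activates Paneth cell defensins, rose by 5.15 (SE 0.50, adjusted p = 8.1e-07), and Itln1, a lectin that binds microbial glycans, rose by 4.51 (SE 0.57, adjusted p = 9.5e-06). In epithelial sums 8 of 19 were higher and 5 lower (median 0.34), 13 of 19 against 64.6% of all genes. There Mmp7 was at 6.00, Itln1 at 5.58 and Pigr at -1.92, and the defensin Defa24 was at 472 ± 447 CPM in tumors against 0.262 ± 0.272 CPM in mucosa. Of this list, 5 genes (Lyz1, Mmp7 and 3 defensins) were also Paneth markers. Itln1 was among the leading genes of the Paneth-like cluster, and Paneth-like cells numbered 594 in tumors and 1 in mucosa.

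Of 16 other neutrophil granule genes 14 were tested over all cells, 11 were higher and 1 was lower, where 36.9% of all genes were higher and 34.3% lower. Their median log2 difference was 6.44, or 5.76 with the gene at 0 in mucosa (Mpo) set at its bound. The exception was Cd177 (-1.72, SE 0.31, adjusted p = 0.00020). Mmp9, a gelatinase of neutrophil granules, rose by 8.49 (SE 0.48, adjusted p = 9.2e-09), Padi4, which citrullinates histones, by 7.11 (SE 0.36, adjusted p = 4.3e-09), Lyz2, a lysozyme of myeloid cells, by 6.16 and Cybb, of the phagocyte oxidase, by 4.33. In epithelial sums 11 of 13 were higher and 1 lower (34.1% and 30.5% of all genes), with Padi4 at 8.31, Mmp9 at 8.17 and S100a8 at 5.66, and with Mpo, the myeloperoxidase of primary granules, at 0.859 ± 0.401 CPM in tumors and 0 in mucosa. S100a8 and S100a9 of this list were also among the neutrophil markers, whose summed level in the epithelium is given above.

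A list of 24 cytokines, receptors and other factors of pathways that regulate the members held inhibitors as well as inducers. Of these 24 genes, 18 were higher and 2 lower over all cells (median 2.17), against 36.9% and 34.3% of all genes. Il1b rose from 7.83 ± 2.66 to 2677 ± 598 CPM (8.46, SE 0.43, adjusted p = 4.5e-09), Il6ra by 4.31 (SE 0.35, adjusted p = 1.8e-07) and Cebpb, a C/EBP factor, by 4.08 (SE 0.28, adjusted p = 4.0e-08). Il17rc, a subunit of the interleukin 17 receptor, fell by 2.02 (SE 0.17, adjusted p = 2.6e-07). In epithelial sums 8 of 18 were higher and 3 lower (median 0.46), against 34.1% and 30.5% of all genes, with Tnf at 3.20, Il1b at 7.60, Il17rc at -1.18 and Gfi1, a repressor expressed in secretory cells, at -2.45. In the same epithelial sums all 7 neutrophil markers were higher (median 7.73), as were all 6 Spp1+ macrophage markers (median 7.93), and their part in the Il1b, Tnf and Fpr2 values was not tested. Of 8 receptors of the members 7 were tested over all cells and all 7 were higher (median 2.11), against 36.9% of all genes, among them Fpr2, which binds cathelicidin and serum amyloid A (8.17, SE 0.59, adjusted p = 6.6e-08), Tlr2 (3.28), the scavenger receptor Cd36 (3.85) and Lrp1, which binds lactotransferrin (2.11). In epithelial sums 3 of 6 were higher and 1 lower, against 34.1% and 30.5% of all genes: Fpr2 (6.66), Slc22a17, a lipocalin 2 receptor (2.32, SE 0.53, adjusted p = 0.0017), and Extl3, a receptor for Reg3 proteins (0.46, SE 0.14, adjusted p = 0.0096), were higher and Lrp1 was lower (-1.87).

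Finally, the genes with the pattern most like each member across 15 cell classes of the tumors were found by Pearson's r of log2(CPM + 1), as a description over classes that share libraries. Reg3b was most like Bglap3, Muc13 and Vil1 (r 0.98 to 0.99), Reg3g like Prom1, Tmprss2 and Chmp4c (0.97 to 0.98), Retnlb like Hpd, Sval1 and Tpsg1 (0.99), Saa1 like Muc3, Atp12a and Slc5a8 (0.96 to 0.98) and Saa2 like Fhl1, Ddah1 and Clic5 (0.91 to 0.97). Saa3 was most like Nrg1, Tgfbi and Ifi204 (0.94 to 0.96), Camp like Chil1, Nlrp12 and Gm20406 (0.96 to 0.97) and Ngp like Olfm4, Gm20406 and Prok2 (0.97 to 0.98). Lcn2 and Ltf, whose tumor UMIs lay mainly in neutrophil-like and epithelial cells, shared Fosl1 as their closest gene (0.92 and 0.85). Across the tumor libraries, within the class where each member was highest, the most similar genes were Cct6a, Hook1 and Ddah1 for Reg3b, Shf, C2cd4b and Slc50a1 for Reg3g (8 libraries), Wtip, Hist1h2bc and Pak1ip1 for Retnlb (7 libraries), Ogdh and Efr3a for Saa1, Spink1, 2200002D01Rik and Prss30 for Saa2, Csf3, Il1r2 and Srsf7 for Saa3, Napsa, Cd37 and Anxa1 for Lcn2, Lamtor1, Trim30d and Atp6v1d for Camp, Trim30d, Rpl12 and Mirt1 for Ltf, and Zfand5, Junb and Pnp for Ngp, over 10 libraries where no number is given.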

How the data were processed

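The study dissociated colon tumors and adjacent mucosa into single cells, made 10x Genomics 3' libraries and counted UMIs with Cell Ranger (6.0.0 per the file headers and the submitters' processing notes) against the mouse genome mm10. The methods of the paper name an earlier version of Cell Ranger. The authors deposited these counts, not normalized, as 1 matrix per library, and all 13 were used. Barcodes were kept if they had 500 UMIs or more from 200 genes or more, with mitochondrial UMIs below 25%, and predicted doublets (0.8% per 1000 cells) were removed, leaving 108495 cells. Cells were clustered in Python 3.11.15 (leidenalg 0.10.2) on 2000 variable genes with the 10 members held out, 30 principal components, 20 neighbours and resolution 1, giving 41 clusters, which were named from at least 3 markers of a class. UMIs were summed per library and class (at least 20 cells) and tested with edgeR 4.0.16 (glmQLFit and glmQLFTest, TMM, filterByExpr, R 4.3.3), with Benjamini-Hochberg adjustment over all genes tested and a threshold of 0.05. Cells were never used as replicates. For shares of cells with a UMI compared between classes, each cell was thinned to 1000 UMIs, and shares of cells with a pair of genes were not thinned.

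Libraries of 1 mouse pair by their labels. Deviations from the tissue means were compared between the mucosa and the mean of the tumors of a mouse, and r was low. Over all cells it was 0.13 for mouse A, 0.064 for mouse B and 0.15 for mouse C. In epithelium it was 0.21, 0.11 and 0.31. No r between the mucosa of 1 mouse and the tumors of another is given, so these values do not test the pairing. The mouse as a block, tumors summed per mouse, DESeq2 1.42.0, DESeq2 size factors, no low-count filter, other cell filters and leaving out each library were alternatives. On simulated data, the all-cell test recovered 53% of 2-fold and 87% of 4-fold changes. Every member is named. From each list of related genes, up to 4 with the lowest adjusted p in the all-cell and in the epithelial comparison are named, and the others named beside them were chosen after their values were seen. For each member the 3 genes with the highest Pearson r (at least 50 CPM) are named, except 1 that is not reported here. The members and lists were chosen with earlier results of these data known. Promoter sequences are from RefSeq (GRCm38.p6) and gene positions from GENCODE on GRCm38.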

Additional observations from a re-analysis of the deposited data

Results flagged for a closer look

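In groups of 7 to 10 tumors, a library was marked when its gap to the next exceeded Dixon's 95% limit. Chance exceeds it in about 1 in 20 groups of independent values with a normal spread. Here CPM were skewed and groups of 1 gene shared cells, so the count of marked groups cannot be set against that rate. Of 30 groups, 7 had such a library, and tumor 6 was the library in 4 of the 7. In tumor 6, Reg3b was at 2225 CPM in epithelial cells (next highest 1151 CPM) and 9401 CPM in absorptive-like cells (next 2452 CPM), and Ltf was at 13.6 CPM over all cells (next 6.21 CPM) and 25.6 CPM in epithelial cells (next 8.27 CPM). In tumor 4, epithelial Ngp was at 7.59 CPM (next 3.99 CPM) and epithelial Camp at 1.25 CPM (next 0.192 CPM). In tumor 9, epithelial Saa3 was at 17 CPM (next 6.38 CPM).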

How the results depend on the processing

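Of 1037 values of members under alternatives, 972 kept their direction and their side of the threshold, 29 lost significance, 28 gained it and 8 changed sign. Of these 8, 7 came from using only the cluster with most tumor cells, an alternative chosen after seeing the data: Reg3b at 2.19, Reg3g at 2.33, Saa3 at 1.80 and Ltf at -0.27 in absorptive-like cells, and Reg3b at 0.11, Reg3g at 0.54 and Saa1 at -0.35 in goblet-like cells. The other was epithelial Saa3 with doublets kept (0.31). No value passed after its sign change, and of their reported values only those of Reg3b and Saa3 in absorptive-like cells had passed. With only that cluster 471 genes passed in goblet-like cells, against 921, and 1605 in absorptive-like cells, against 5762. With every gene that had a count, 1778 passed in goblet-like cells, 1829 between mice in neutrophil-like cells (against 1124), where 5 members then passed and the fit's median prior degrees of freedom were infinite, and 31 between mice in epithelial cells (against 74). DESeq2 called 1144 genes between mice in epithelial cells and 292 for the interaction (against 0). Leaving out 1 library gave 425 (without mucosa 3) to 1189 genes in goblet-like cells, 558 (without tumor 2) to 1521 between mice in neutrophil-like cells and 1 (without tumors 1, 2, 4 or 5) to 1042 (without tumor 9) in epithelial cells. The cause was not tested. The mouse as a replicate block ended the epithelial call of Saa1 (-1.21, adjusted p = 0.075), brought Reg3g, Saa1 and Saa2 past the threshold in absorptive-like cells and changed no other member's call; with tumors also summed per mouse the all-cell call of Saa2 was lost (adjusted p = 0.057). The call of Saa2 over all cells was also lost with doublets kept (0.074) or every barcode used (0.13), and that of Saa1 in the epithelium with doublets kept (0.069) or Paneth-like cells left out (0.056). The interaction could not be fitted without a mucosa library. With 3 mice and 3 mucosa libraries, animal spread in mucosa was estimated from few values, and members with under 10 CPM in a class rest on few UMIs.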
